A study of Homo sapiens with 14 samples.

Results

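K562 cells in which a catalytically inactive Cas9 (dCas9) was directed to the HS2 enhancer of the β-globin locus (sgHS2) were compared with K562 cells in which it was directed to the fetal globin promoters (sgHBG). The members were all libraries labelled sgHS2 (n = 3) or sgHBG (n = 3), 6 of the 14 RNA-seq libraries of the study. K562 is an established human chronic myeloid leukaemia line with erythroid and megakaryocytic features. Cells of both groups expressed a tagged dCas9 (FB-dCas9, with a Flag tag and a biotin-acceptor peptide), the biotin ligase BirA and a guide RNA, so these components were common to both groups. No activator or repressor domain is named in the labels. The other 8 libraries were from cells with a guide to the yeast Gal4 sequence (sgGal4, n = 3), from cells in which guides directed it across the hypersensitive sites of the locus control region (sgHS1-5, n = 3), and from unmodified cells (WT, n = 2). They served as reference levels and contributed to the estimate of the spread between replicates. Each guide group is its own cell population, so the target of dCas9 and any other difference between the populations cannot be told apart. Whether replicates came from separate cultures is not stated in the labels, and the p-values therefore measure only a spread between libraries that may be technical.

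The β-globin genes lie in the order in which they are used in development, from the embryonic gene HBE1 through the fetal genes HBG2 and HBG1 and the pseudogene HBBP1 to the adult genes HBD and HBB. The locus control region upstream of them is a group of DNase-hypersensitive enhancer elements, of which HS2 is among the strongest in erythroid cells, and it is brought into contact with the promoter of the active globin gene. K562 cells make embryonic and fetal but little adult globin.

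The sgHS2 libraries held 11285274, 9765587 and 10622959 counted reads and the sgHBG libraries 9781552, 10870414 and 11116665. A count of 0 in these libraries allows a level of up to 0.261 to 0.322 CPM (counts relative to library size). The sgHBG replicates were close to each other, with a χ² per degree of freedom of 1.24 to 1.41 between pairs, where a value near 1 means that counting error alone separates the libraries. In sgHS2 it was 1.70 between replicates 1 and 3, but 15.8 and 15.1 between these and replicate 2. Library sgHS2 2 had more reads from short and fewer from long transcripts than the other sgHS2 libraries. Its median log2 deviation from them was 0.28 in the 20% of genes with the shortest and -0.26 in the 20% with the longest transcripts, whereas no sgHBG library deviated from its group by more than 0.0244 in any 20% (the plot of level by transcript length). This deviation carried over into the comparison: the median log2 difference between sgHS2 and sgHBG was 0.08 in the shortest and -0.07 in the longest 20%, and -0.01 and 0.01 without sgHS2 2. All 11 erythroid marker genes were at 1 CPM or above on average in both groups. Their summed level was 2651 to 2847 CPM in sgHS2 and 1961 to 1990 CPM in sgHBG. The sum includes HBE1, HBG1 and HBG2, which together made up 986 to 1326 CPM in sgHS2 and 405.5 to 439 CPM in sgHBG. It is therefore not a measure apart from the globin genes below. Fewer cells of a type and less RNA per cell cannot be told apart in these bulk libraries, here and in the lists of other lineages.

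**Figure D1:**
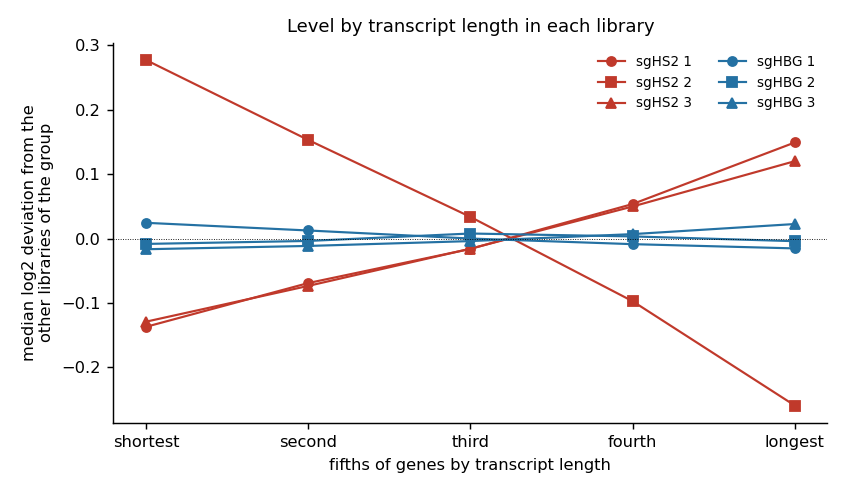
Median log2 deviation of each sgHS2 and sgHBG library from the mean of the other libraries of its group (y axis), for genes in bins of 20% by transcript length (x axis). The sgHS2 2 line falls from 0.28 to -0.26, the other sgHS2 libraries mirror it because it is among the libraries they are set against, and the sgHBG libraries lie near 0.

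The comparison asks which genes differ in level between cells with dCas9 directed to the enhancer and cells with it directed to the fetal promoters. Of 14406 genes tested, 1284 (8.91%) passed an adjusted p of 0.05 in edgeR's quasi-likelihood test, 542 higher in sgHS2 (3.76%) and 742 lower (5.15%). The median size of the log2 difference was 0.67 among the higher and 0.91 among the lower genes, and 457 genes (3.17%; 128 higher and 329 lower) differed by at least 2-fold. The 3 libraries of a group all lay on the same side of the 3 of the other group in each of the 1284 called genes, and in 6336 of the genes tested (44.0%; 21.9% with sgHS2 higher and 22.1% with it lower). Without sgHS2 2 the test called 706 genes (4.90%). Of the 1283 main calls with a value in that fit, all had the same sign and 679 were still called. Among the called genes, 152 were in a gene list or named by size: 85 of these kept the call with each of the 6 libraries left out in turn, 36 lost it in some of the 6 fits and 31 in all 6, with an adjusted p of 0.206 at most. The number called also depended on which libraries set the spread. With the 6 libraries alone it was 3510 of 13136 genes (26.7%), and with these but without sgHS2 2 it was 6295 of 13390 (47.0%). A fit that left out sgGal4 1, sgHS1-5 2 and sgHS1-5 3, which stood apart from the rest of their groups, called 4616 genes (32.2%).

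**Figure D2:**
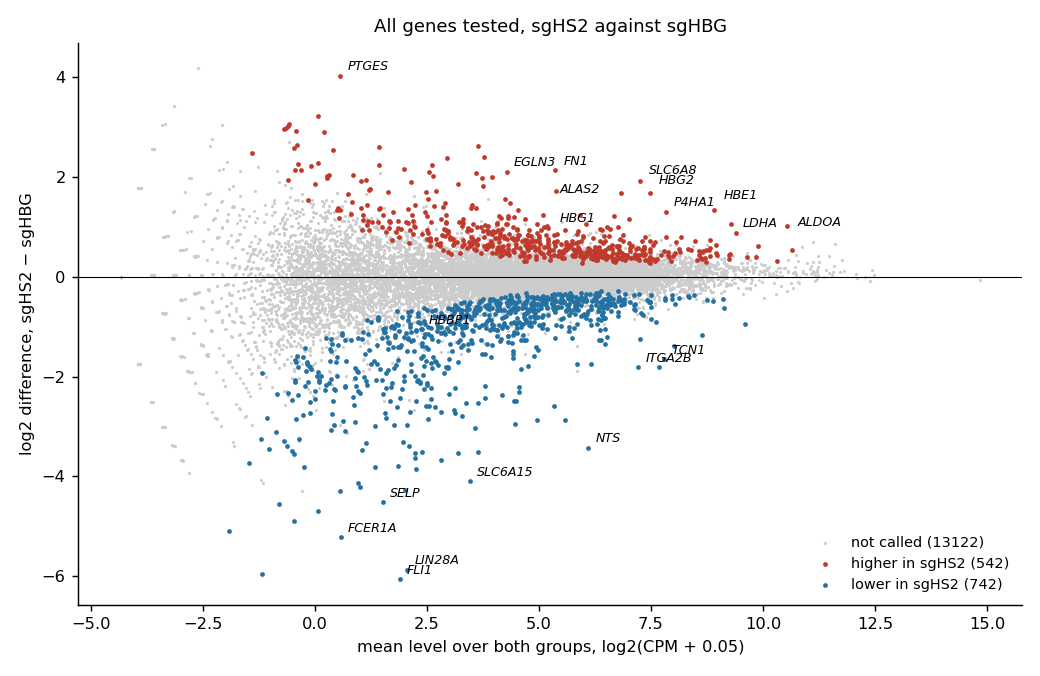
Log2 difference between sgHS2 and sgHBG (y axis) against the mean level over both groups, as log2(CPM + 0.05) (x axis), for each of the 14406 genes tested. Red points are the 542 genes higher in sgHS2, blue points the 742 lower ones, and grey points those not called; the lower genes reach further from 0 than the higher ones.

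The sgGal4 mean was more often nearer to sgHBG in both directions, the WT mean only among the higher genes. Of the 542 genes higher in sgHS2, the sgGal4 mean was nearer to sgHBG for 364 and nearer to sgHS2 for 178, and the WT mean was nearer to sgHBG for 304. Both references were nearer to sgHBG for 195 genes and both nearer to sgHS2 for 69. Without sgGal4 1, an alternative chosen after seeing the data, the sgGal4 mean was nearer to sgHBG for 380. The sgHS2 libraries were above all 11 other libraries in 189 of these genes, and the sgHBG libraries below all others in 27. Among the 742 lower genes, sgHS2 was below all other libraries in 213 and sgHBG above all others in 139. The sgGal4 mean was nearer to sgHBG for 506 of the lower genes, whereas the WT mean was nearer to sgHS2 for 463.

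The embryonic gene HBE1 and the fetal genes HBG1 and HBG2 were higher in sgHS2 than in sgHBG cells. HBE1 was at 634, 825 and 618 CPM in the sgHS2 libraries and at 289, 266 and 265 CPM in the sgHBG libraries. The groups did not overlap, and sgHS2 2 was the highest. The mean of 692 ± 116 CPM (SD, n = 3) in sgHS2 was 2.53-fold that of 273 ± 13.7 CPM (n = 3) in sgHBG, a log2 difference of 1.34 ± 0.28 (SE, adjusted p = 0.0107, edgeR). The WT libraries lay between the targeted groups, at 344 CPM on average. In sgGal4 HBE1 was at 544, 240 and 239 CPM: sgGal4 1, a library that stood apart from its group, lay between sgHBG and sgHS2, and the other two lay below every sgHBG library.

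HBG2, which encodes fetal γ-globin, was at 246, 324 and 243 CPM in sgHS2 and at 90.2, 82.1 and 80.5 CPM in sgHBG. Every sgHS2 library was above every sgHBG library, and the log2 difference was 1.69 ± 0.33 (3.22-fold, adjusted p = 0.00792, edgeR). HBG1, its near-identical neighbour, was at 123, 176 and 126 CPM in sgHS2 and at 59.8, 63.3 and 60.3 CPM in sgHBG, again without overlap. Its log2 difference was 1.21 ± 0.33 (2.31-fold, adjusted p = 0.038, edgeR). Reads of HBG1 and HBG2 can be assigned to either gene, so the split between them is uncertain. In sgGal4 HBG2 was at 166, 58.0 and 60.4 CPM and HBG1 at 130, 47.1 and 46.5 CPM. Again sgGal4 1 was high, for HBG1 within the range of sgHS2, and sgGal4 2 and 3 were below every sgHBG library. The sgHS1-5 libraries overlapped sgHS2 in both genes, at 279, 174 and 230 CPM for HBG2 and 154, 102 and 146 CPM for HBG1. The WT libraries were above sgHBG in HBG2, at 122 and 129 CPM, and close to it in HBG1, at 58.5 and 62.0 CPM.

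HBBP1, a transcribed pseudogene between the fetal and adult genes, went the other way. It was at 2.27, 4.29 and 3.5 CPM in sgHS2 and at 6.5, 8.02 and 6.19 CPM in sgHBG, a log2 difference of -1.05 ± 0.24 (adjusted p = 0.0172, edgeR). This call was lost without sgHS2 1, sgHS2 3, sgHBG 1 or sgHBG 2 (adjusted p up to 0.0896). Both groups were above the sgGal4 mean of 1.24 CPM and, in every library, above the WT mean of 1.91 CPM. The adult gene HBD was at 5.59, 6.32 and 6.17 CPM against 6.70, 5.71 and 7.06 CPM, and the overlapping groups gave a log2 difference of -0.11 ± 0.21 (adjusted p = 0.834, edgeR). HBB, which encodes adult β-globin, was not tested: the sgHS2 libraries held 1 read of it and the sgHBG libraries 0. Thus 3 of the 5 tested genes of the cluster were higher and 1 was lower in sgHS2, with a median log2 difference of 1.21 beside 0 over all genes.

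Together HBE1, HBG1 and HBG2 summed to 1002, 1326 and 986 CPM in the sgHS2 libraries and to 439, 411 and 405.5 CPM in the sgHBG libraries. HBE1 made up 62.7 ± 0.482% of this CPM sum in sgHS2 and 65.2 ± 0.594% in sgHBG (SD, n = 3 each), beside 41.0% in sgHS1-5. CPM is not scaled to length, and the HBE1 transcript is the longest, at an estimated 0.795 kb beside 0.431 kb for HBG1 and 0.441 kb for HBG2. The ratio of HBG2 to HBG1 reads was 1.93 ± 0.0865 in sgHS2 and 1.38 ± 0.113 in sgHBG, beside 1.27 in sgGal4 and 2.08 in WT. In each of these 3 measures the groups did not overlap, which in an exact two-sided permutation test gives p = 0.1, the smallest value that groups of 3 and 3 allow. Per length, in RPKM, HBE1 was the most abundant of the 3 genes in both groups, at 884 ± 148 in sgHS2 and 355 ± 14.2 in sgHBG, followed by HBG2 at 631 ± 118 and 199.8 ± 13.9 and HBG1 at 333 ± 61.5 and 141 ± 3.02. The RPKM of HBE1 relative to HBG1 and HBG2 together was 0.935, 0.900 and 0.919 in the sgHS2 libraries and 1.03, 1.07 and 1.03 in the sgHBG libraries.

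HBE1, HBG1 and HBG2 belong to the shortest 20% of transcripts, in which sgHS2 2 was high; the part of that library's deviation in their difference was not tested, but each was also measured without it. Without sgHS2 2 the log2 differences were 1.2 for HBE1 (adjusted p = 0.0461, edgeR), 1.54 for HBG2 (adjusted p = 0.0342) and 1.02 for HBG1 (adjusted p = 0.142). The call of HBG1 was lost without any 1 of the 6 libraries (log2 1.02 to 1.30, adjusted p = 0.0715 to 0.142), that of HBE1 without sgHBG 2 or sgHBG 3 (log2 1.32 in both, adjusted p = 0.0522 and 0.0530). HBG2 kept its call without each of them, in part narrowly (adjusted p = 0.0215 to 0.0449, edgeR).

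**Figure D3:**
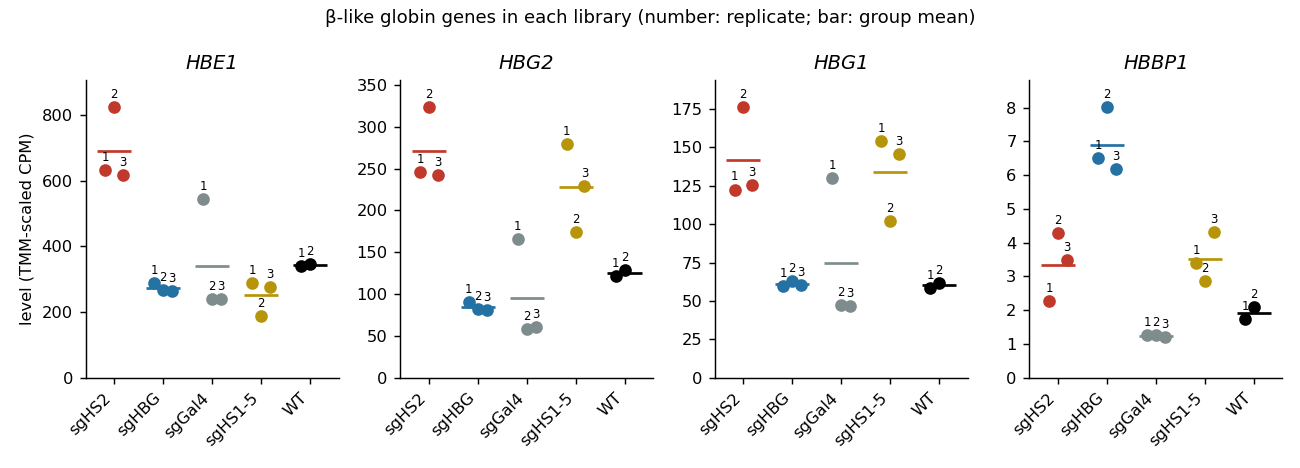
Level of 4 genes of the β-globin cluster in each library of the study, as TMM-scaled CPM (y axis, from 0) by group (x axis); points are libraries, numbered by replicate, and bars are group means. For HBE1, HBG2 and HBG1 the 3 sgHS2 libraries lie above the 3 sgHBG libraries, with sgHS2 2 highest, and for HBBP1 below them.

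No difference was called in the genes around the cluster. Of 36 neighbouring genes in the table, mostly olfactory receptor and TRIM genes, 25 were tested and 0 were called by edgeR (6 at an unadjusted p under 0.05, as were 22.5% of all genes) or voom and 3, all lower, by DESeq2. The median log2 difference was -0.08. OR51B5, an olfactory receptor gene next to the locus control region, was at 64.2 CPM in sgHS2 and 88.1 CPM in sgHBG (log2 -0.46, adjusted p = 0.0765, edgeR). With the spread of the 6 libraries alone, 1 neighbour was called higher and 5 lower of 21 tested. In the α-globin cluster 0 of 12 tested genes were called by edgeR (3 at an unadjusted p under 0.05) or voom, and 1 by DESeq2. The embryonic α-like gene HBZ was at 10.1 CPM in sgHS2 and 8.83 CPM in sgHBG (log2 0.18, adjusted p = 0.703), and HBQ1 at 8.69 and 5.38 CPM (log2 0.69, adjusted p = 0.378). HBA1 and HBA2, which are near-identical in their coding sequence, were below 1 CPM in the mean of both groups (HBA1 at 1.29 CPM in sgHS2 2).

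Among 48 regulators of globin transcription, 5 were lower in sgHS2 (beside 5.15% of all genes) and 0 higher. They were MYB, a transcription factor of erythroid progenitors (230, 207 and 226 against 282, 288 and 280 CPM, log2 -0.36, adjusted p = 0.0158, edgeR), ZFPM1, the GATA1 cofactor FOG-1 (12.1 against 20.3 CPM, log2 -0.75, adjusted p = 0.0212), RUNX1 (67.6 against 104 CPM, log2 -0.62, adjusted p = 0.0468), NR2F2 (22.8 against 29.9 CPM, log2 -0.39, adjusted p = 0.0251) and the maintenance DNA methyltransferase DNMT1 (146 against 209 CPM, log2 -0.51, adjusted p = 0.0347). Leaving out any 1 of the 6 libraries left 0 or 1 of the list called lower (0 lower and 1 higher without sgHS2 2). The erythroid master regulator GATA1 was at 186 and 158 CPM (log2 0.24, adjusted p = 0.59), KLF1 at 51.4 and 36.6 CPM (log2 0.49, adjusted p = 0.232) and NFE2 at 192 and 159 CPM (log2 0.27, adjusted p = 0.475). BCL11A, a repressor of fetal globin, was at 0 CPM in sgHS2 and 0.0333 CPM in sgHBG.

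In heme synthesis, the pathway that supplies the prosthetic group of globin, 5 of 20 tested genes were higher in sgHS2 and 0 lower. Of all genes 3.76% were higher, and the median log2 difference of the list was 0.26. ALAS2, the erythroid form of the first enzyme of the pathway, was at 168, 186 and 165 CPM in sgHS2 and at 52.4, 54.0 and 54.8 CPM in sgHBG. The groups were far apart relative to their spread, with a log2 difference of 1.69 ± 0.18 (adjusted p = 0.000115, edgeR), and sgGal4 was at 52.7 CPM, as sgHBG was. SLC25A37, the mitochondrial iron importer mitoferrin, was at 107, 111 and 110 against 55.5, 56.8 and 56.1 CPM (log2 0.96 ± 0.12). CPOX and FECH, 2 later enzymes of the pathway, had log2 differences of 0.66 and 0.42, and FAM210B, a mitochondrial protein, of 0.53. The enzymes ALAS1, ALAD, UROS, UROD and PPOX were not called. Without sgHS2 2, 4 of the list were called, and without any other of the 6 libraries 3: FAM210B lost its call in all 6 fits (adjusted p up to 0.0905, edgeR) and FECH in all but that without sgHS2 2 (adjusted p up to 0.0925).

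The reference promoter of ALAS2 is shown because the gene had the largest difference of the heme list and because erythroid genes are known targets of GATA factors. The window is 300 bases around the gene's start (RefSeq, GRCh38.p14, chrX:55030928-55031227, minus strand), and capitals mark the match to AGATAA on either strand.
ALAS2: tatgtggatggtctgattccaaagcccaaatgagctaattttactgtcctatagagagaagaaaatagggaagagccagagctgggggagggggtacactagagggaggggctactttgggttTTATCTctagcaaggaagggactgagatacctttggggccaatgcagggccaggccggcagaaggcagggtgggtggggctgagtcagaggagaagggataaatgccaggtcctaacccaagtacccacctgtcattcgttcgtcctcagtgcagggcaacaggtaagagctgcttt
Of the called heme genes with a window, 2 of 4 held AGATAA, ALAS2 and CPOX, against 1 of 12 of those not called and 8.62% of the 10523 tested genes with a window. The motif was found in 10.3% of all 35116 windows.

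In iron handling 3 of 22 tested genes were higher (beside 3.76% of all genes) and 0 lower, with a median log2 difference of 0.06. They were NCOA4, the receptor for ferritin degradation (525, 452 and 514 against 354, 340 and 340 CPM, log2 0.53), the heme transporter SLC48A1 (log2 0.60) and the iron chaperone PCBP2 (log2 0.40, adjusted p up to 0.0706 with 1 of the 6 libraries left out, edgeR). The transferrin receptor TFRC was at 1162 and 1264 CPM and was not called. Of 33 tested genes of the erythroid membrane, 4 were higher and 3 lower, beside 3.76% and 5.15% of all genes. The cytoskeletal proteins DMTN (45.3, 48.6 and 44.2 against 22.3, 23.5 and 23.4 CPM) and ADD1 were among the higher ones, as was SEMA7A. The lower ones were the water channel AQP1 (12.5, 12.1 and 11.5 against 29.0, 25.8 and 27.4 CPM), the adhesion receptor CD44 (111, 125 and 113 against 197, 193 and 189 CPM) and TRIM10. The reference groups themselves were far apart in CD44, at 236 CPM in sgGal4 and 4.41 CPM in WT.

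Cells under low oxygen switch on glycolytic enzymes and other targets of the hypoxia-inducible factors. Of 40 tested genes of glycolysis and hypoxia, 20 were higher in sgHS2 (beside 3.76% of all genes) and 0 lower, with a median log2 difference of 0.47. P4HA1, a subunit of the collagen prolyl 4-hydroxylase, was at 331, 322 and 326 CPM in sgHS2 and at 138, 133 and 124 CPM in sgHBG. The narrow and separate ranges gave a log2 difference of 1.31 ± 0.10 (adjusted p = 1.19e-05, edgeR), with sgGal4 in between at 230 CPM. EGLN3, an oxygen-sensing hydroxylase that marks the hypoxia-inducible factors for destruction and is itself one of their targets, was at 32.1, 31.6 and 30.5 CPM against 6.80, 7.40 and 7.67 CPM (log2 2.10 ± 0.22, adjusted p = 0.000135). Its relative EGLN1 had a log2 difference of 0.62.

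Among the glycolytic enzymes, LDHA, which turns pyruvate into lactate, was at 837, 918 and 853 CPM in sgHS2 and at 470, 473 and 470 CPM in sgHBG (log2 0.88 ± 0.09, adjusted p = 0.000101, edgeR). PGK1 was at 553, 580 and 555 against 344, 334 and 335 CPM (log2 0.74 ± 0.08, adjusted p = 0.00017). In both genes the lowest sgHS2 library was above the highest sgHBG library. ALDOA, an aldolase, was at 1851, 2356 and 1760.4 against 983, 989 and 981 CPM (log2 1.01), and PKM, GPI, ALDOC and ENO2 were also called higher, ENO2 not in 5 of the 6 fits that left out a library. The enzymes GAPDH (log2 0.20, adjusted p = 0.372), ENO1 (log2 0.28, adjusted p = 0.227) and TPI1 (log2 0.23, adjusted p = 0.624) were not called.

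Of the hypoxia targets outside glycolysis, VEGFA, the endothelial growth factor, was at 442, 428 and 466 against 274, 270 and 266 CPM (log2 0.72). The mitophagy receptor BNIP3L (log2 0.71), the histone demethylase KDM3A (log2 0.58) and the carbonic anhydrase CA9 were called as well; KDM3A lost the call without 4 of the 6 libraries and CA9 without 5. CA9 was low in both groups, at 0.874, 1.5 and 0.92 CPM against 0, 0.357 and 0 CPM. Of the oxygen-regulated factors themselves, EPAS1 was higher (125, 94.9 and 116 against 62.2, 66.1 and 62.3 CPM, log2 0.82, adjusted p = 0.0452; 0.0627 to 0.154 with 1 of the 6 libraries left out), and HIF1A was at 48.8 and 50.7 CPM (log2 -0.05, adjusted p = 0.941). Leaving out 1 library at a time left 12 to 15 of the list called higher and 0 lower, 14 without sgHS2 2; the spread of the 6 libraries alone gave 25 higher and 1 lower of 38. LDHA was at 1604, 1374 and 1512 CPM in the sgHS1-5 libraries, above both groups.

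The reference promoters of P4HA1 and PGK1 are shown because both genes were called with narrow ranges and both windows hold the core of the hypoxia response element, ACGTG, marked in capitals on either strand (RefSeq, GRCh38.p14; P4HA1 chr10:73096817-73097116, minus strand; PGK1 chrX:78103998-78104297, plus strand).
P4HA1: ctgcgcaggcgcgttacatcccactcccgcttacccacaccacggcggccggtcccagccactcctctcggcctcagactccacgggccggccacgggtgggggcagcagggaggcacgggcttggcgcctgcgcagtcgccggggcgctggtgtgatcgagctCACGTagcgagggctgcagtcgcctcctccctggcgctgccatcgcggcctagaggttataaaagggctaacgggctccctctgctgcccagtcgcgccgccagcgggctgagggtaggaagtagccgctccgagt
PGK1: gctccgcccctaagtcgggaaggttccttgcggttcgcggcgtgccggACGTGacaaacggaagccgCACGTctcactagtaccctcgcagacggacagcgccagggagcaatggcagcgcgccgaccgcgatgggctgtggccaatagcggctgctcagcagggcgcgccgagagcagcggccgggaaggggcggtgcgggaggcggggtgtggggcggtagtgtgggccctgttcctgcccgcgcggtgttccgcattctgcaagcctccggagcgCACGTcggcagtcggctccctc
The P4HA1 window held 1 match and the PGK1 window 3. ACGTG was in the windows of 11 of 17 called genes of the list (64.7%) and of 11 of 19 not called (57.9%), against 31.8% of all tested genes with a window and 21.4% of all windows.

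Most called genes of the megakaryocyte and platelet lineage were in the opposite direction. Of 25 tested of 36 listed, 10 were lower and 1 higher in sgHS2, beside 5.15% and 3.76% of all genes. The median log2 difference of the list was -0.81. ITGA2B, the platelet integrin chain CD41, was at 61.7, 74.3 and 60.7 CPM in sgHS2 and at 229, 231 and 232 CPM in sgHBG (log2 -1.81 ± 0.16, adjusted p = 3.35e-05, edgeR). The mean was 53.3 CPM in sgGal4 and 38.4 CPM in WT, and 122, 80.2 and 117 CPM were measured in sgHS1-5, so the sgHBG libraries were the highest of the study.

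FLI1, an ETS transcription factor of megakaryocytes, had 3 reads in the sgHS2 libraries together and 235 in the sgHBG libraries, where it was at 7.90, 6.86 and 6.88 CPM. The ratio of the summed levels was 75.8 (95% interval 25.6 to 370, exact binomial, counting error only), and the adjusted p was 0.0237 (edgeR). It was low in sgGal4 as well (0.375 CPM), had 0 reads in WT, and ranged from 0.324 to 39.3 CPM in sgHS1-5. Its call was lost without any 1 of the 6 libraries (adjusted p = 0.0605 to 0.0938, edgeR). SELP, the adhesion receptor P-selectin, was at 0.262, 0.322 and 0.092 against 5.00, 5.26 and 5.84 CPM (log2 -4.52 ± 0.61, adjusted p = 0.000622).

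Further members lower in sgHS2 were RAB27B, a granule-secretion GTPase (30.8, 18.3 and 30.2 against 85.3, 94.4 and 86.0 CPM), the growth factor ANGPT1 (53.9, 39.2 and 49.0 against 116, 117 and 110 CPM), the matrix glycoprotein THBS1 (35.1, 34.7 and 38.3 against 74.3, 70.5 and 75.2 CPM), MMRN1, the collagen receptor GP6, TBXAS1 and MEIS1. PTGS1, the cyclooxygenase of platelets, was the member higher in sgHS2 (167, 173 and 149 against 121, 122 and 124 CPM, log2 0.41). The integrin partner of ITGA2B, ITGB3, was at 7.97 and 11.7 CPM (log2 -0.56, adjusted p = 0.178) and GP1BA at 1.68 and 2.46 CPM, neither called. With any 1 of the 6 libraries left out 7 members were lower, and PTGS1 was called higher only without sgHS2 3; TBXAS1 and MEIS1 lost their calls in all 6 fits (adjusted p up to 0.0872 and 0.125, edgeR). For this lineage 9 markers were followed, with a summed level of 71.8 to 83.4 CPM in sgHS2 and 245 to 249 CPM in sgHBG. Most of both sums came from ITGA2B, so they largely repeat the difference of that gene and do not stand for the lineage. Of the 9 markers, 4 in sgHS2 and 3 in sgHBG were at 1 CPM or above, and GP1BB was at 0 in all 6 libraries. The part of these markers in the result was not tested.

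Of 28 myeloid genes tested, 7 were lower (beside 5.15% of all genes), 0 were higher and 21 were not called, with a median log2 difference of -0.67. FCER1G, the common Fc receptor γ chain, was at 1.49, 1.39 and 1.38 CPM in sgHS2 and at 16.5, 17.1 and 16.3 CPM in sgHBG (log2 -3.54 ± 0.50, adjusted p = 0.000926, edgeR). The integrin ITGB2 (5.94, 7.18 and 7.09 against 37.1, 37.6 and 39.5 CPM, log2 -2.50) and the cytokine receptor chain CSF2RB (7.08, 5.25 and 7.27 against 36.6, 35.7 and 38.8 CPM, log2 -2.50) were each lower, with sgGal4 at 3.30 and 4.23 CPM. In all 3 genes the sgHBG libraries lay above those of sgGal4 and WT, and in sgHS1-5 2 ITGB2 reached 276 CPM. The calls of ITGB2 and CSF2RB were lost without any 1 of the 6 libraries (adjusted p = 0.0755 to 0.113 and 0.0727 to 0.0956, edgeR), while FCER1G kept its call in all 6 fits. Smaller differences were called in FCGR2A (log2 -0.55), CD68 (log2 -0.46) and CD33 (log2 -0.32), and VCAN was low in both groups. The myeloid master factor SPI1 was at 59.6 and 67.3 CPM (log2 -0.17, adjusted p = 0.715). The summed level of 6 myeloid markers was 79.5 to 82.5 CPM in sgHS2 and 93.3 to 104 CPM in sgHBG, and its part in the result was not tested. Without sgHS2 2, 4 genes of the list were lower, and without any other of the 6 libraries 2; FCGR2A was called in 0 of the 6 fits, and CD68 and CD33 only without sgHS2 2.

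In the mast cell and basophil list 2 of 10 tested genes were lower and 1 higher, beside 5.15% and 3.76% of all genes. HDC, which makes histamine, was at 84.6, 94.0 and 92.8 against 210, 215 and 220 CPM (log2 -1.25 ± 0.15, adjusted p = 0.000265, edgeR), while unmodified cells had 0.521 CPM. FCER1A, a chain of the IgE receptor, had 2 reads in sgHS2 and 93 in sgHBG, a ratio of 45 (95% interval 12.1 to 377, exact binomial). IL5RA was higher at a low level, but with 1 of the 6 libraries left out it was called only without sgHS2 1. Of 19 lymphoid genes tested, 1 was lower, near the 5.15% of all genes, and 0 were higher. The lower gene was the cytotoxic effector PRF1 (6.38, 8.68 and 5.89 against 11, 14.4 and 11.2 CPM). Its call was lost in 4 of the 6 fits that left out a library. The B-cell marker MS4A1 was at 0 in all 6 libraries, and the summed level of 5 lymphoid markers stayed between 2.58 and 4.81 CPM.

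Genes of DNA replication and proliferation were lower in sgHS2 in 17 of 48 (beside 5.15% of all genes) and higher in 0. Their median log2 difference was -0.41, and 36 of the 48 had groups without overlap in the lower direction, beside 22.1% of all genes. Among the licensing and initiation factors, CDC6 was at 46.4, 50.8 and 46.6 against 87.8, 84.6 and 83.7 CPM (log2 -0.83 ± 0.12, adjusted p = 0.000926, edgeR). MCM4, a subunit of the replicative helicase, was at 126, 107 and 119 against 207, 198 and 197 CPM (log2 -0.77 ± 0.11, adjusted p = 0.00105), and MCM10 at 20.8, 16.0 and 18.2 against 35.6, 35.3 and 37.5 CPM (log2 -0.98). All sgHS2 libraries were below all sgHBG libraries in these genes.

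Of the nucleotide-supply enzymes, RRM2 was at 58.3, 59.6 and 60.9 against 107, 107 and 112 CPM (log2 -0.87), and TYMS was lower by a smaller amount (log2 -0.64). The cyclin CCNE2 (6.38, 6.22 and 7.91 against 12.9, 14.7 and 13.6 CPM) and the transcription factors E2F2 and FOXM1 were lower too. In WT cells CDC6 and RRM2 were higher still, both at 163 CPM on average. Of 16 replication-dependent histone genes tested, 3 were lower (beside 5.15% of all genes) and 0 higher, led by HIST2H2BE (58.5, 58.1 and 59.0 against 121, 122 and 118 CPM, log2 -1.04). Leaving out 1 of the 6 libraries at a time left 9 (without sgHBG 2) to 12 (without sgHS2 2) replication genes lower and 2 histone genes, or 1 without sgHBG 3; FOXM1 kept its call only without sgHS2 2. The cell cycle regulators CCND1 (log2 -0.69) and CCND2 (log2 -0.67) of the BCR-ABL and STAT5 target list were lower as well. CCAAT, a motif common in cell cycle promoters, was in the windows of 8 of 13 replication genes called lower and of 18 of 26 not called (61.5% and 69.2%, beside 43% of all tested genes with a window).

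**Figure D4:**
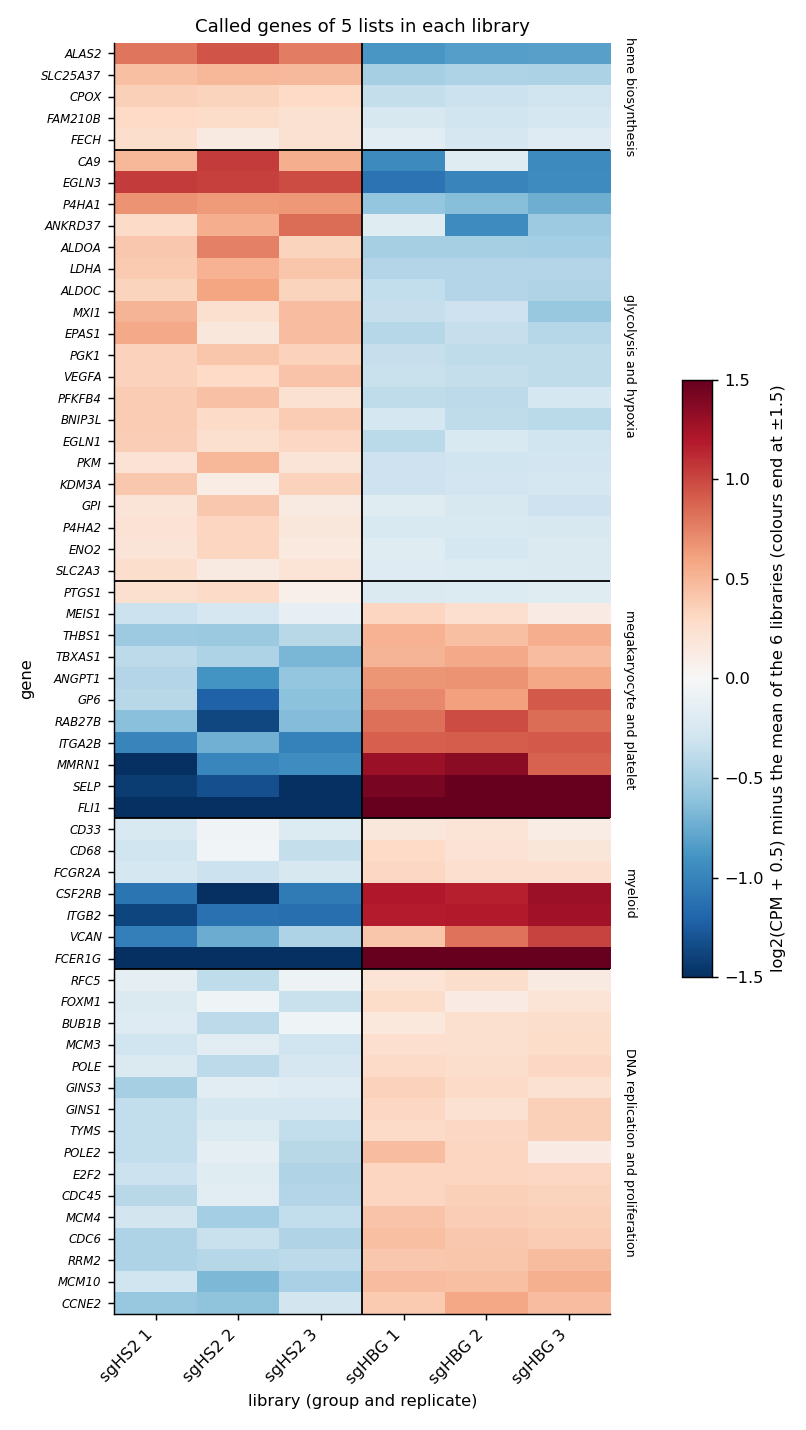
Level of the called genes of 5 lists (rows, 1 called gene not shown) in each of the 6 libraries (columns), as log2(CPM + 0.5) minus the mean of the 6, red for higher and blue for lower, with colours ending at ±1.5. Heme and glycolysis genes are red in the 3 sgHS2 libraries, megakaryocyte genes other than PTGS1, myeloid and replication genes are red in the 3 sgHBG libraries, and the rows were drawn because they were called.

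By the size of the difference, the abundant genes with the largest excess in sgHS2 included SLC6A8, the creatine transporter, at 231, 264 and 223 CPM against 62.8, 62.9 and 65.0 CPM (log2 1.91 ± 0.13, adjusted p = 8.47e-06, edgeR). It was at 40.2 CPM in sgGal4 and 65.3 CPM in WT, so the sgHS2 libraries were above these groups, while sgHS1-5 reached 333, 235 and 320 CPM. ALDH1A1, a retinal dehydrogenase, was at 174, 185 and 175 against 82.2, 78.9 and 79.8 CPM (log2 1.15), and the arginase ARG2 at 80.8, 88.1 and 86.4 against 34.3, 37.4 and 36.2 CPM (log2 1.24). FN1, the matrix protein fibronectin, was at 77.0, 51.6 and 71.4 against 14.8, 16.9 and 13.8 CPM (log2 2.14 ± 0.52, adjusted p = 0.022), between sgGal4 at 1.32 CPM and WT at 306 CPM. Of the 6 libraries, FN1 kept its call without sgHS2 2 (adjusted p = 0.0415) and lost it without any other (adjusted p up to 0.0962). Among genes of lower level, PTGES, a prostaglandin E synthase, had the largest log2 difference of those named, 4.03 ± 0.63, at 2.10, 3.54 and 2.48 against 0.200, 0.0891 and 0.174 CPM. The protease gene CAPN5 was at 14.1, 12.8 and 11.9 against 2.30, 3.03 and 2.09 CPM and the inflammasome adaptor PYCARD at 9.52, 11.3 and 9.39 against 2.20, 2.32 and 1.83 CPM. TRIML2, PNCK, PPAP2B, ELF3, DMKN, CTSO and TNS1 completed the genes with the largest excess, with log2 differences of 2.17 to 2.91. PYCARD, ELF3 and DMKN lost their calls without any 1 of the 6 libraries (adjusted p up to 0.0928, 0.18 and 0.143, edgeR).

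Among the abundant genes lower in sgHS2, NTS, the precursor of the peptide neurotensin, was at 9.87, 12.1 and 13 against 132, 124 and 121 CPM (log2 -3.43 ± 0.24, adjusted p = 1.19e-05, edgeR). It was at 111 CPM in sgGal4, so here sgHS2 stood apart from both sgGal4 and sgHBG, while WT cells had 0.0481 CPM. TCN1, a vitamin B12 binding protein, was at 104, 108 and 108 against 344, 331 and 330 CPM (log2 -1.65), and the phosphatase PTPRC, the leukocyte antigen CD45, at 158, 116 and 158 against 378, 381 and 370 CPM (log2 -1.38). EPHB6, ITPR3 and CLEC11A were lower, with log2 differences of -1.76, -1.35 and -1.27, and CLEC11A kept its call only without sgHS2 2.

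Among genes of lower level, some had only a few reads in sgHS2. LIN28A, an RNA-binding protein that blocks let-7 maturation, was at 0.175, 0 and 0.184 CPM in sgHS2 and at 8.40, 7.93 and 7.93 CPM in sgHBG (4 and 264 reads, log2 -5.87 ± 0.46, adjusted p = 1.66e-05, edgeR). Its level was 4.16 CPM in sgGal4 and 3.15 CPM in WT, so sgHS2 was below both. SLC6A15, a neutral amino acid transporter, was at 1.14, 1.07 and 1.38 against 20.6, 20.1 and 21.3 CPM (log2 -4.09 ± 0.22, adjusted p = 2.82e-06). The transcription factor genes ALX1 (12 and 248 reads) and ZBTB16 (6 and 116 reads), the collagen COL24A1 (10 and 152 reads) and BANK1 (6 and 121 reads) were likewise lower in sgHS2, with sgGal4 means of 11.8, 4.16, 13.6 and 1.58 CPM. APBB1IP (19 and 289 reads), an adaptor of integrin activation, was at 4.71 CPM in sgGal4. In contrast, TFEC (15 and 220 reads) and RGS18 (4 and 89 reads) were below 1 CPM in sgGal4 too, and RGS18 lost its call without any 1 of the 6 libraries (adjusted p up to 0.131, edgeR). The adhesion receptors ITGA4 (6.90, 5.47 and 9.66 against 55.6, 52.0 and 55.2 CPM, log2 -2.88) and ESAM (log2 -2.24) and the protease inhibitor TIMP3 (log2 -2.22) were lower as well.

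The remaining lists were mixed or held few calls. Their counts are to be read against the 3.76% of all genes called higher and the 5.15% called lower. Of 20 cancer-testis antigen genes, 5 MAGE genes were higher, led by MAGEA4 (16.2, 17.0 and 19.3 against 6.80, 7.58 and 5.75 CPM), and NAA11 and PRDM9 were lower, for a median log2 difference of 0.40. Leaving out 1 of the 6 libraries at a time left 2 MAGE genes higher, or 3 without sgHS2 3. PRDM9, the meiotic recombination factor, was at 53.4, 54.9 and 51.2 against 114, 109 and 113 CPM, between sgGal4 (207 CPM) and WT (5.81 CPM). Of 39 interferon-response genes, 4 were higher and 0 lower: IFI27, IFIH1, DHX58 and GBP2, with the RNA sensor IFIH1 at 40.8, 37.6 and 41.0 against 22.2, 21.7 and 21.4 CPM. GBP2 lost its call without any 1 of the 6 libraries (adjusted p up to 0.171, edgeR). In the extracellular matrix list, 4 of 29 were higher and 2 lower (2 or 3 higher with 1 of the 6 libraries left out), with the collagen COL15A1 at 126, 117 and 122 against 58.9, 60.2 and 62.9 CPM. Cholesterol synthesis had 2 of 27 higher, MSMO1 (log2 0.75) and CYP51A1 (log2 0.34, called only without sgHS2 2 when 1 of the 6 libraries was left out), and 0 lower.

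Protein-stress lists showed little. Of 24 genes of the unfolded protein response 0 were called by edgeR (3 at an unadjusted p under 0.05) or voom and 3 by DESeq2. Of 38 ATF4 stress-response genes GARS alone was higher (log2 0.43), and of 19 heat shock genes HSPA1L alone was (log2 0.75), and both lost the call in 5 of the 6 fits that left out a library. The biotin-dependent enzymes, of interest because the cells carry a biotin ligase, had ACACB higher (log2 0.88, called only without sgHS2 2 when a library was left out) and SLC5A6, the biotin transporter, lower (46, 45 and 42 against 69.5, 70.2 and 69.9 CPM, log2 -0.66). Ribosomal protein genes had 0 of 75 called by edgeR (1 at an unadjusted p under 0.05), voom or DESeq2, and 60 of 75 had a positive log2 difference, with a median of 0.09. These are short transcripts, and without sgHS2 2 the median was -0.05. Immediate early genes had 2 of 34 higher (JUN and BTG2), p53 targets 1 of 23 higher (CCNG1) and 1 lower (AEN), and antigen processing 1 of 23 higher (TAPBP) and 2 lower (TAP2 and CTSS). Of these genes BTG2, CCNG1, TAPBP and TAP2 lost the call without any 1 of the 6 libraries (adjusted p up to 0.206, edgeR), JUN and CTSS in 5 of the 6 fits and AEN in 2. Fibroblast and epithelial genes had 2 of 16 higher (FN1 and SPARC) and 2 lower (COL1A2 and COL3A1, the latter in 0 of the 6 fits with a library left out), and LUM and KRT5 were at 0 in all 6 libraries.

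**Figure D5:**
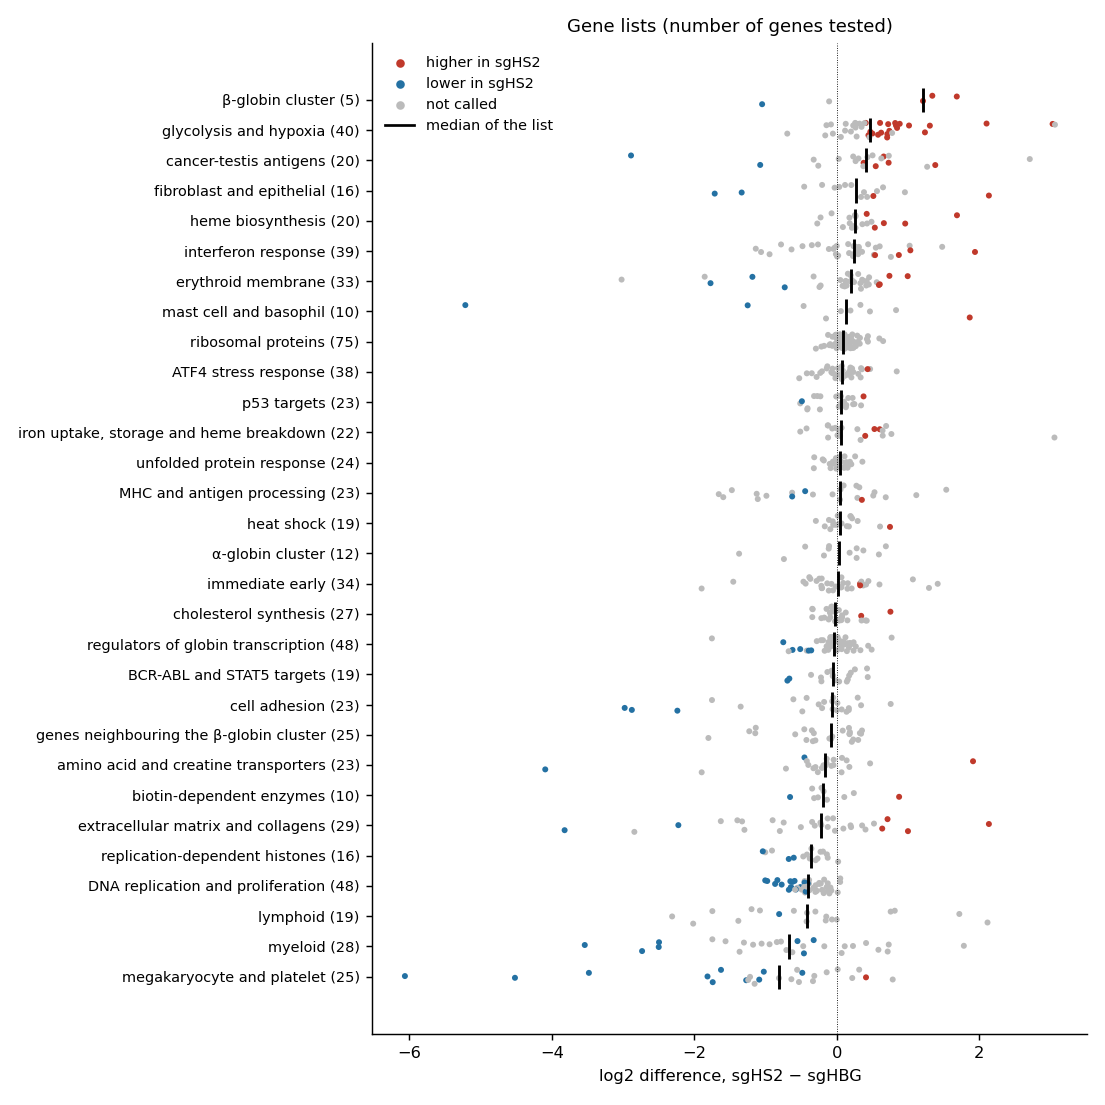
Log2 difference between sgHS2 and sgHBG (x axis) of each tested gene of 30 lists (rows, ordered by median), with genes called higher in red, lower in blue, uncalled in grey and the list median as a black bar. The β-globin, glycolysis and cancer-testis lists have the highest medians, 1.21, 0.47 and 0.40, and the megakaryocyte and myeloid lists the lowest, -0.81 and -0.67.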

How the data were processed

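The deposited values were a table of raw read counts per gene for 24729 genes and a table of RPKM values, which the authors scaled to transcript length and depth, for 25268 genes; both hold the 14 libraries. The submitters' processing notes name TopHat, Cufflinks, DESeq and hg19 without versions or roles; the counting tool and annotation are not given in the sources used here. Libraries came from total RNA with a TruSeq v2 kit, per the labels' protocols, which does not mark strand, so reads of a gene and an antisense partner cannot be told apart.

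Counts were tested with edgeR 4.0.16 (R 4.3.3). Genes passing filterByExpr (minimum count 10, minimum total 15) were kept, which left 14406, and libraries were scaled by TMM. One mean per group was fitted over all 14 libraries (9 residual degrees of freedom), and sgHS2 was compared with sgHBG by the quasi-likelihood F test with Benjamini-Hochberg adjustment over all genes tested (the adjusted p of edgeR in the text). Levels are TMM-scaled CPM. Alternatives used limma 3.58.1, DESeq2 1.42.0, other scalings, filters and sets of libraries, a replicate block, each library left out, and log2(RPKM + 1 or 0.1) with limma-trend, in which the added amount makes differences of low genes smaller. Transcript length was estimated from the ratio of deposited counts to RPKM. Intervals and detection floors reflect counting error alone, because amplified reads lacking molecular identifiers are not separate molecules.

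Named genes were those of the β-globin cluster, the 12 highest and 12 lowest called genes with a mean of at least 1 CPM and no overlap, the 8 highest and 8 lowest with at least 50 CPM, and up to 4 members of each of 30 lists with the lowest p; further list members were named after their values were seen. The comparison and the lists were chosen with earlier results of these data known. On simulated data for sgHS2 against sgHBG with 14019 genes, 200 of them changed, the procedure recovered 11.9% of genes changed 1.5-fold, 55.2% changed 2-fold and 97.0% changed 4-fold, with 5.22% of calls false. The simulated counts were independent between genes, and each gene had the same spread in every group. They lacked the length-dependent deviation of sgHS2 2, so the 5.22% is not the error rate of the calls in the real data. Promoter windows matched 10523 tested genes by symbol. Some items are not reported here.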

Additional observations from a re-analysis of the deposited data

How the results depend on the processing

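Of the 105 named genes that were called, 25 lost the call without sgHS2 2 and 36 at most when another single library was left out (sgHBG 3), and 0 changed direction in any alternative. Leaving out 1 library at a time gave 548 to 722 called genes, 177 to 290 higher and 358 to 455 lower, and the log2 difference of HBE1 was 1.2 to 1.42 and that of HBG1 1.02 to 1.30. With the 6 libraries alone 3510 genes were called, 1629 higher and 1881 lower. Without sgHS2 2 among these there were 6295 (3076 and 3219, and 719 at 2-fold or more). Without sgGal4 1, sgHS1-5 2 and sgHS1-5 3 there were 4616 (2295 and 2321, and 794 at 2-fold or more). On log2(RPKM + 1) the number at 2-fold or more was 195 with and 189 without the filter on low values, beside 457 from counts; adding 1 shrinks the differences of low genes. DESeq2, voom, RLE scaling, scaling without the globin genes and other count filters called 1046 to 1758 genes, and the RPKM tests 1437 to 1621. Under every alternative the 1284 called genes with a value kept their sign, except 1 gene on log2(RPKM + 1) without the filter.

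No pairing by replicate number was seen: the correlation of deviations between same-numbered libraries was -0.0438, -0.0176 and 0.0358, and 1 of 3 sgHS2 libraries correlated best with its own number. Deviations from a group mean cancel out within the group, and in sgHS2 replicates 1 and 3 mirror sgHS2 2. These correlations therefore cannot show that pairing was absent. With the replicate block, 1001 genes were called over all 14 libraries and 3019 over the 6 (1342 higher and 1677 lower).

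Depth limits genes near 0.3 CPM, where 3 reads are expected. With 3 libraries a group and the spread of sgGal4 and sgHS1-5 in the fit, differences under 2-fold were often not called, so an uncalled gene is not shown to be equal. The split of reads between HBG1 and HBG2 is uncertain.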
